A study of Mus musculus with 4 samples.

Results

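Apoe, Apoc1, Cd36, Fabp5, Clu and Trf encode proteins that carry, bind or take up lipids or iron. These 6 genes were found by symbol among the 30907 features measured, and every one of them was present in the 4 libraries. They were selected on their levels in these same libraries, so the levels and ratios below describe the genes and none of them is tested. Apoe (ENSMUSG00000002985) lies on chromosome 7, positions 19696109 to 19699188, and Apoc1 (ENSMUSG00000040564) at 19689481 to 19692660 of the same chromosome, both on the minus strand with 3448 bases between them. Cd36 (ENSMUSG00000002944) lies on the minus strand of chromosome 5 at 17781690 to 17888801, and Fabp5 (ENSMUSG00000027533) on the plus strand of chromosome 3 at 10012548 to 10016607. Clu (ENSMUSG00000022037) lies on the plus strand of chromosome 14 at 65968483 to 65981547, and Trf (ENSMUSG00000032554) on the minus strand of chromosome 9 at 103204001 to 103230444. All positions are from the GENCODE vM21 annotation of GRCm38 and span whole protein-coding genes.

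The cells came from the tracheas of 2 adult wild type mice, each injured intratracheally with 2% polidocanol, a detergent, and given 6000000 basal cells by the same route 5 hours later. The recipient labelled 129 X1/S1 received iBCs, basal cells made in culture from embryonic stem cells, and was examined after 192 days. The recipient labelled C57BL/6 received primary basal cells (primary BCs) and was examined after 69 days. Live cells (Calcein Blue+) of each trachea were sorted by GFP, giving GFP+ cells that descend from the transplant (donor-derived, here called graft cells) and GFP- cells of the animal itself (endogenous, here called host cells). Each of the 4 groups was 1 library, with no replicate. Donor cell kind, strain, days and animal differed together between the recipients and cannot be told apart. An untouched control trachea was not analysed here.

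The libraries held 1421 to 1891 barcodes with 21504563 to 26625123 UMIs in total, and 6542 cells were kept after filtering, with a median of 9298 to 14175 UMIs per cell by library. Any pair of libraries shared at most 1 barcode. EGFP stood at 65.4 and 608 counts per 1e+06 UMIs (CPM) in the graft libraries of the iBC and the primary BC mouse, against 0.0917 and 9.71 CPM in their host libraries. Cells were placed by marker scores into basal, secretory and ciliated gates, and basal-gated cells were divided at 3 Krt14 UMIs per 10000. These classes are ranges of a score and not cell types: 264 of the 5698 cells in them lay within 0.3 score units of another gate, and 355 of the 3268 basal-gated cells lay between 1.5 and 6 per 10000. Secretory markers were also present in the Krt14-low basal-gated cells, with a median score of 1.06 to 2.62 beside a basal score of 1.73 to 2.56. Host and graft cells of the iBC mouse lay in different clusters in every class, while those of the primary BC mouse shared theirs; the clusters are named with the comparison made within them. A difference was called where at least one of the sums compared reached 20 CPM, the levels differed at least 2-fold and the 95% interval of the ratio excluded 1.

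Apolipoproteins coat lipoprotein particles; apolipoprotein E is the ligand through which cells take up such particles by receptors of the LDL receptor family, and apolipoprotein C-I, from the neighbouring gene of the same cluster, modifies the enzymes and receptors that act on them. Cd36 is a membrane receptor for long-chain fatty acids and oxidised lipoproteins, and Fabp5 is a cytosolic fatty acid binding protein of epidermis and other epithelia. Clu (clusterin, also named apolipoprotein J) is a secreted chaperone found on high-density lipoproteins, and Trf (transferrin) carries iron in plasma and secretions.

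The sequence upstream of the start of transcription was matched for 2 of the 6 genes, Apoe and Cd36, and none is printed for Apoc1, Fabp5, Clu and Trf. The pair is shown because a window was matched for both genes, and not for their levels. The 250 bases before the start are from RefSeq (GRCm38.p6), 5′ to 3′ on the strand of the gene, at chr7:19699189-19699438 (minus strand) for Apoe and at chr5:17835897-17836146 (minus strand) for Cd36. The Cd36 window lies inside the longer span that GENCODE gives the gene. Capitals mark matches to 5 motifs searched on both strands.
Apoe: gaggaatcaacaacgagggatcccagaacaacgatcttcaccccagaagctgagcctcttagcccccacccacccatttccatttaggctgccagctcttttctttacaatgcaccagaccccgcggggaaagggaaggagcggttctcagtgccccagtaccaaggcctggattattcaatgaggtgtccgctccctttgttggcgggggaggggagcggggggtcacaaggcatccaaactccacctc
Cd36: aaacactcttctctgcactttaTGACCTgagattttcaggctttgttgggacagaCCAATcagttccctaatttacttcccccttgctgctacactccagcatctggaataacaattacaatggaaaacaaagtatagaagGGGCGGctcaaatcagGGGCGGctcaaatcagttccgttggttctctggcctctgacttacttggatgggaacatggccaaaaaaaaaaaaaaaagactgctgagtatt
The Apoe window was 57.2% G or C and the Cd36 window 43.2%. In the Cd36 window, CCAAT stood 195 bases before the start, GGGCGG 109 and 93 bases before it, and AGGTCA, on the opposite strand and so printed as TGACCT, 228 bases before it. TATAAA and TGANTCA were not in the Cd36 letters, and none of the 5 motifs was in the Apoe letters. Among 32851 upstream windows of the same length, 33.85% held CCAAT, 32.74% GGGCGG, 14.02% AGGTCA, 12.37% TATAAA and 6.749% TGANTCA. A match is a description of the letters and no evidence of a bound factor.

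Among the 4 compared classes Apoe RNA was highest in basal-gated cells of the recipients themselves and several-fold lower in the descendants of either transplant. In Krt14-low basal-gated cells it reached 4117 CPM (95% interval 4060 to 4174) in the host library of the iBC mouse and 527 CPM (499 to 557) in its graft library. In the primary BC mouse the same class held 1337 CPM (1312 to 1362) among host and 88.2 CPM (81.9 to 94.8) among graft cells. The graft library was thus the lower in both mice, although the iBC descendants held more Apoe RNA than those of the primary BCs. Intervals here and below are exact Poisson intervals for CPM and ratios and exact Clopper-Pearson intervals for shares, at 95%, and cover counting error alone.

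In Krt14-high basal-gated cells the order was the same, with 3658 and 752 CPM of Apoe in host and graft cells of the iBC mouse and 1972 and 165 CPM in those of the primary BC mouse. Graft cells were 7.81-fold lower (7.38 to 8.26) in the Krt14-low and 4.87-fold lower (4.66 to 5.08) in the Krt14-high class of the iBC mouse. Those of the primary BC mouse were 15.2-fold lower (14.1 to 16.4) and 11.9-fold lower (10.9 to 13.0). Secretory-gated cells held 1.02 to 14.8 CPM and ciliated-gated cells 1.46 to 3.76 CPM of Apoe across the libraries, below the basal-gated sums of every library. In the descending order of the 16 library-by-class sums, each basal sum was separated from the next by its counting interval, while the ciliated sums overlapped one another.

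**Figure D1:**
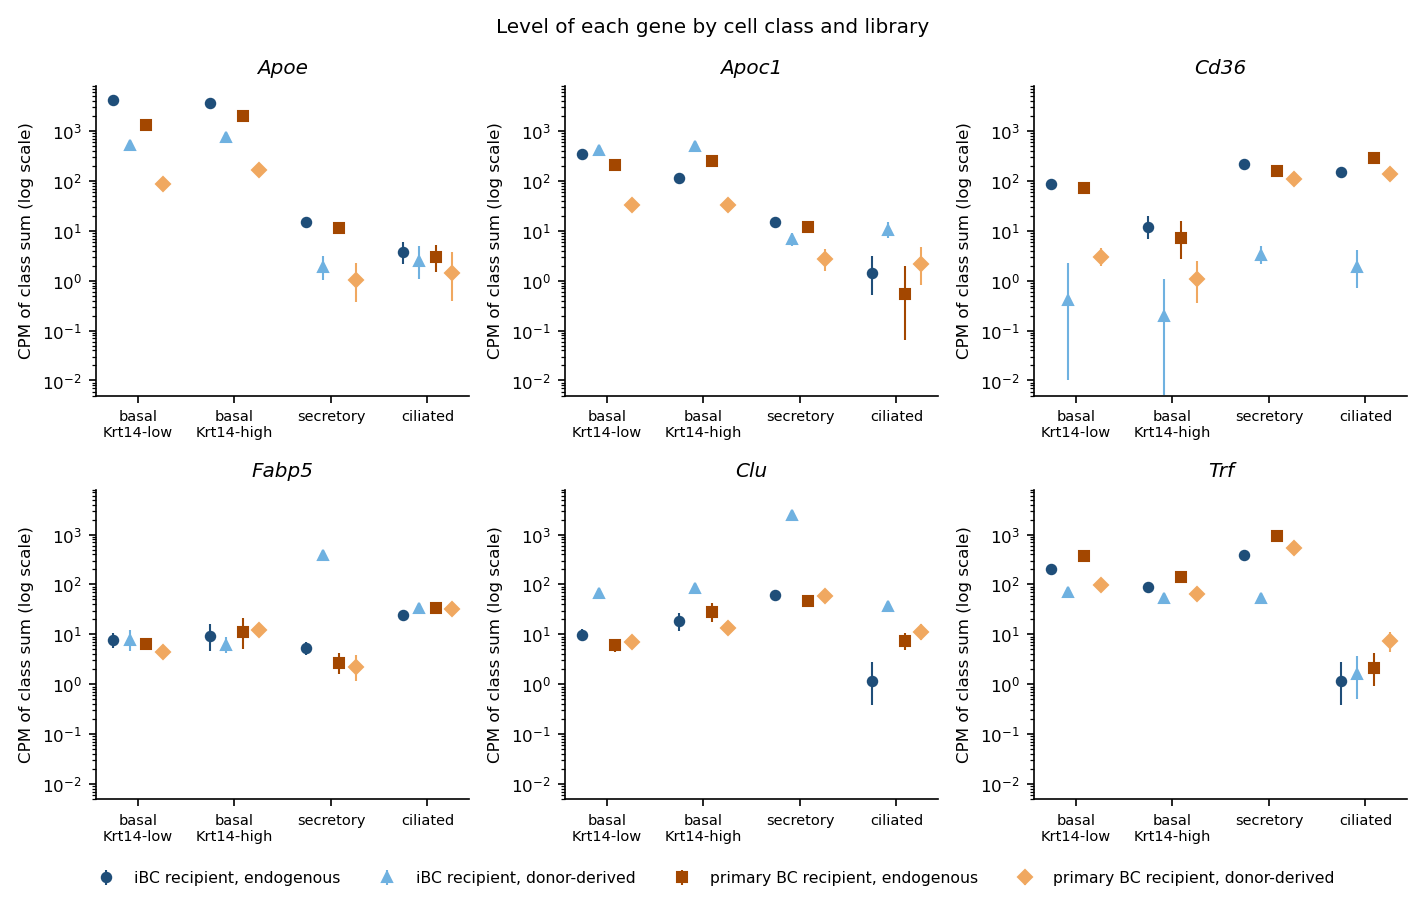
Level of each gene (CPM of the class sum, log scale) in the 4 classes on the horizontal axis, with 1 point per library and exact 95% Poisson intervals as bars (bars reaching below the axis end there). Apoe sits between 88.2 and 4117 CPM in basal-gated and at 14.8 CPM or less in secretory- and ciliated-gated cells, and Cd36 of the iBC graft library sits at 3.34 CPM or less in every class.

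The difference in Apoe also showed in how many cells held the RNA. At full depth a UMI of Apoe was found in 93.2% of host and 46.3% of graft Krt14-low cells of the iBC mouse, and in 87.9% and 23.1% in the primary BC mouse, at median depths of 7758.5, 8543, 12179 and 10907 UMIs. With every cell thinned to 5000 UMIs, which left out 128 shallower cells over all classes, the shares were 92.2%, 39.0%, 79.6% and 16.5% in that order. In Krt14-high cells the thinned shares were 97.9% and 49.4% in the iBC mouse and 92.2% and 30.1% in the primary BC mouse. Ciliated-gated cells, which should lack the gene, held Apoe in 0.398% to 1.17% of thinned cells (2.55% to 5.76% unthinned), below every basal share.

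Single cells of the iBC mouse overlapped in part. The host Krt14-low cells had a median of 42.9 Apoe UMIs per 10000 and a lower quartile of 21.8, and 23 of 259 graft cells (8.88%) reached that quartile. In the Krt14-high class 61 of 425 graft cells (14.4%) reached the host lower quartile of 19.5. Host lower quartiles of the primary BC mouse were 1.73 and 7.85 per 10000, reached by 96 of 719 (13.4%) and 28 of 415 (6.75%) graft cells. Most graft cells thus lay below the lower quartile of host cells, with a minority above it.

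Apoe is also a gene of macrophages. In immune-gated cells of the primary BC mouse's host library (61 cells) it stood at 5609 CPM, beside 11801 CPM for 7 macrophage markers other than Lyz2, an enzyme that airway secretory cells also make. The same 7 markers summed to 0.757 to 9.02 CPM in the basal-gated sums of the 4 libraries, and C1qa, C1qb and C1qc were at 0 in both basal-gated sums of the iBC mouse's host library. All 7 markers had a UMI in the Krt14-low host cells of the primary BC mouse, at 9.02 CPM in sum, and their part in the Apoe level there was not tested. The 21 immune-gated cells of the iBC mouse held 33.2 CPM of Apoe (12.2 to 72.2).

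Reporter UMIs did not mark every sorted graft cell. In the iBC graft library 108 Krt14-low cells had a reporter UMI and held 447 CPM of Apoe, and 151 had none and held 590 CPM. In the Krt14-high class the values were 748 CPM in 198 cells with and 756 CPM in 227 cells without a reporter UMI. Both kinds of cells were thus well below the host 4117 and 3658 CPM. In the graft library of the primary BC mouse 706 of 719 Krt14-low cells had a reporter UMI and held 84.6 CPM, while the 13 without held 302 CPM.

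Apoc1 followed Apoe in its place among the classes but not, in the iBC mouse, in the direction of its difference. Krt14-low basal-gated cells of the iBC mouse held 352 CPM (335 to 369) of Apoc1 in host cells and 417 CPM (392 to 443) in graft cells, a ratio of 1.18 (1.10 to 1.28) that stayed under the 2-fold limit. In the Krt14-high class the graft cells held 501 CPM against 113 CPM and were 4.44-fold higher (3.76 to 5.27). In the primary BC mouse the graft cells were the lower, with 32.2 against 213 CPM in the Krt14-low class (6.60-fold, 5.80 to 7.54) and 33.0 against 249 CPM in the Krt14-high class (7.54-fold, 6.08 to 9.36). The graft libraries thus lay on opposite sides of their own host libraries. Against the primary BC descendants the iBC descendants were 12.9-fold (11.3 to 14.9) and 15.2-fold (12.9 to 18.0) higher in Apoc1.

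Apoc1 was found in 49.6% of host and 48.4% of graft Krt14-low cells of the iBC mouse after thinning (56.0% and 56.0% unthinned), and in 33.6% and 6.45% in the primary BC mouse (43.2% and 10.2% unthinned). In secretory-gated cells it stood at 2.72 to 15.4 CPM and in ciliated-gated cells at 0.541 to 10.5 CPM. Among host Krt14-low cells of the iBC mouse, 52.1% of thinned cells with Apoe also held Apoc1, against 16.7% of the 48 cells without Apoe. In the iBC graft cells of that class the shares were 53.5% and 40.1%, in host cells of the primary BC mouse 35.0% and 24.4%, and in its graft cells 13.1% and 6.94%. The intervals of the pair overlapped in each of those last 3 sets. In Krt14-high graft cells of the iBC mouse the shares were 59.5% (52.6 to 66.2) and 45.5% (38.6 to 52.5), with intervals just apart. Those of the primary BC mouse ran the other way, at 5.00% (1.86 to 10.6) and 6.94% (4.29 to 10.5), with overlapping intervals.

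Cd36, the fatty acid receptor, was nearly undetected in iBC-derived cells of every class. Secretory-gated cells held 218 CPM (208 to 228) of Cd36 in the host and 3.34 CPM (2.16 to 4.93) in the graft library of the iBC mouse, a 65.2-fold difference (44.0 to 101). In ciliated-gated cells the levels were 149 and 1.91 CPM, 78.0-fold lower (35.6 to 213) in the graft cells. In Krt14-low basal-gated cells 419 host UMIs (85.4 CPM) stood against 1 graft UMI (0.410 CPM), a ratio of 208 with an interval from 37.2 to 8253.

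The primary BC descendants held Cd36 outside the basal gates. Secretory-gated cells of that recipient held 158 CPM in host cells and 109 CPM in graft cells, 1.45-fold lower (1.31 to 1.60) and under the limit for a call. Ciliated-gated cells held 293 and 140 CPM, 2.10-fold lower (1.87 to 2.37) in graft cells; with cells of high secretory score left out this call was lost (log2 ratio of -0.92). Krt14-low basal-gated cells held 71.2 and 3.03 CPM, 23.5-fold lower (15.8 to 36.6). In the Krt14-high class Cd36 was 12.1 CPM or lower in all 4 libraries, under the minimum of 20 CPM.

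At equal depth 53.4% of host secretory-gated cells of the iBC mouse held Cd36 and 1.15% of graft ones (72.5% and 1.36% unthinned), against 41.9% and 31.1% in the primary BC mouse (62.7% and 50.6% unthinned). Of the 441 iBC-derived secretory-gated cells, 2 reached the host median of 1.69 UMIs per 10000. No UMI of Cd36 was found in the 27 hillock-gated, 24 microfold-gated and 131 between-gate cells of the iBC graft library. With 0 read as at most 3 cells, this depth allows a UMI of the gene in up to 11.1%, 12.5% and 2.29% of such cells. The exact upper limits were 12.8%, 14.2% and 2.78%. Neither sets a limit on how many cells express Cd36. Hillock cells are squamous airway cells rich in Krt13, and microfold cells are epithelial cells that sample antigens.

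With the classes taken from the gates, Fabp5 was called in the secretory-gated class of the iBC graft library only. Secretory-gated iBC descendants held 392 CPM (378 to 406), against 5.20 CPM in host cells of the same trachea, 2.67 CPM in host and 2.21 CPM in graft cells of the other mouse. The graft cells were 75.3-fold (56.1 to 103) above the host ones and 178-fold (104 to 334) above the primary BC descendants. A UMI was found in 68.3% of these cells (51.5% thinned) and in 4.06% (2.61%) of the host ones. In ciliated-gated cells Fabp5 stood at 24.9 to 33.7 CPM and in basal-gated cells at 4.48 to 12.3 CPM, with no call in any of the 4 comparisons made from the gates. With classes taken from clusters Fabp5 was called in both basal classes in each of those comparisons, 7 times higher and 1 time lower in the first-named library. In Krt14-low cells the log2 ratios were then 2.09 for graft against host in the iBC mouse and -1.75 in the primary BC mouse, and those in Krt14-high cells 0.98 and 0.78. Classes taken from clusters hold every cell of a cluster, whatever its own gate. Cluster 15 held 70 basal-gated and 32 microfold-gated cells, and its iBC graft cells stood at 2196 CPM of Fabp5. The part of the microfold-gated cells in these basal calls was not tested. Without cells of high secretory score, the ciliated class was called lower in iBC than in primary BC descendants, at -0.88. The annotation lists a processed copy of Fabp5, Fabp5l2, so reads may be shared with it and the Fabp5 level is uncertain in that respect.

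The microfold-gated cells of the iBC graft library (24 cells) held more Fabp5 than any class compared, at 6738 CPM (6503 to 6980), with a UMI in every cell. Clu stood at 5770 CPM (5552 to 5994) in the same cells. Hillock-gated cells held 46.5 to 91.4 CPM of Fabp5 in the 3 libraries with at least 20 of them, and immune-gated cells of the primary BC mouse 212 CPM.

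Clu was higher in the iBC descendants than in host cells in all 4 classes. Secretory-gated cells held 2412 CPM (2377 to 2448) in graft cells and 60.7 CPM (55.6 to 66.1) in host cells, a 39.8-fold difference (36.5 to 43.4), and 96.6% against 40.2% of cells had a UMI (90.6% and 21.9% thinned). The primary BC mouse had 57.7 CPM in graft and 46.6 CPM in host secretory-gated cells, within 1.24-fold (1.06 to 1.45). The 3 other libraries thus lay between 46.6 and 60.7 CPM and the iBC graft library far above them.

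In the other classes of the iBC mouse Clu was 6.95-fold higher (5.01 to 9.80) in Krt14-low, 4.63-fold (3.07 to 7.31) in Krt14-high basal-gated and 31.6-fold (13.2 to 99.2) in ciliated-gated graft cells. The levels behind these were 68.0 against 9.79 CPM, 84.2 against 18.2 CPM and 37.2 against 1.18 CPM. In Krt14-high cells of the primary BC mouse Clu was lower in graft cells, at 13.6 against 28.2 CPM (2.07-fold, 1.23 to 3.39), on 63 and 23 UMIs. That call was lost when classes were taken from clusters, at a log2 ratio of -0.43. Among thinned iBC-derived secretory-gated cells, Clu was found in 96.7% of 212 cells with Fabp5 and in 84.3% of 223 without it.

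Trf was highest in secretory-gated cells of 3 libraries, the exception being the iBC graft library, where Krt14-low basal-gated cells held more, and it stood at 7.30 CPM or less in ciliated-gated cells. Secretory-gated cells held 388 CPM (375 to 401) of Trf in host cells and 53.3 CPM (48.2 to 58.8) in graft cells in the iBC mouse, and 920 and 537 CPM in the primary BC mouse. The iBC descendants were 7.28-fold lower (6.56 to 8.10) than their host neighbours and the primary BC descendants 1.71-fold (1.64 to 1.79), the latter under the limit for a call. At equal depth the shares of cells with Trf were 68.1%, 18.6%, 73.8% and 55.8% in that order (82.0%, 37.4%, 87.7% and 78.1% unthinned). Of the 441 iBC-derived secretory-gated cells, 22 (4.99%) reached the host median of 2.57 UMIs per 10000.

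In basal-gated cells Trf was lower in graft cells of both recipients. The Krt14-low class held 201 and 69.7 CPM of Trf in the iBC mouse, 2.89-fold lower (2.45 to 3.42), and 379 and 99.6 CPM in the primary BC mouse, 3.81-fold lower (3.52 to 4.12). In the Krt14-high class the primary BC mouse had 138 and 64.6 CPM (2.14-fold lower, 1.71 to 2.67) and the iBC mouse 88.6 and 53.6 CPM, 1.65-fold and not called. The calls in Krt14-low cells of the iBC mouse and in Krt14-high cells of the primary BC mouse were lost when clusters led by another class were left out, at log2 ratios of -0.73 and -0.95, and the latter also with classes taken from clusters, at -0.69. An overlapping gene, Gm20425, shares the Trf locus, and whether the counts used the strand is not given in the sources used here, so reads of the pair may not be told apart.

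**Figure D2:**
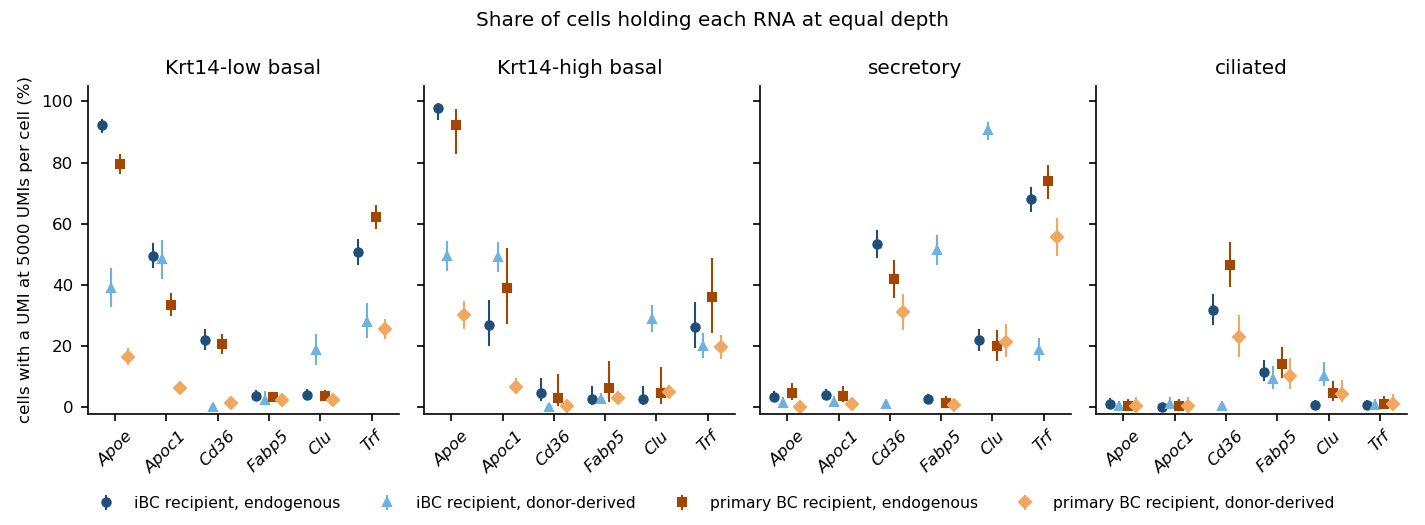
Share of cells with at least 1 UMI of each gene after thinning every cell to 5000 UMIs (vertical axis, percent), by class and library, with exact 95% Clopper-Pearson bars. In the secretory panel Clu stands at 90.6% and Fabp5 at 51.5% in the iBC graft library, with Cd36 at 1.15%.

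The calls were then counted over the 6 genes and 4 classes. In the iBC mouse 13 of 24 gene-by-class pairs were called between graft and host cells, 6 higher and 7 lower, with 16 pairs reaching 20 CPM; over all features 9.34% of 25344 pairs were called, 5.38% higher and 3.97% lower. In the primary BC mouse 9 of 24 pairs were called, 0 higher and 9 lower, with 13 pairs reaching 20 CPM, against 0.941% of 24330 pairs (0.456% higher and 0.485% lower). Since the genes were picked with these ratios known, nothing is read from their counts against the background. Shares over all features, here and below, are of those that reached 20 CPM in at least 1 of the sums compared. The median log2 ratio of all features was 0.36 in the secretory-gated cells of the iBC mouse and between -0.02 and 0.11 in the other 7 sets, so the 5.20 of Clu and the -2.75 of Trf in the former stand at 4.85 and -3.13 after scaling that removes this shift.

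**Figure D3:**
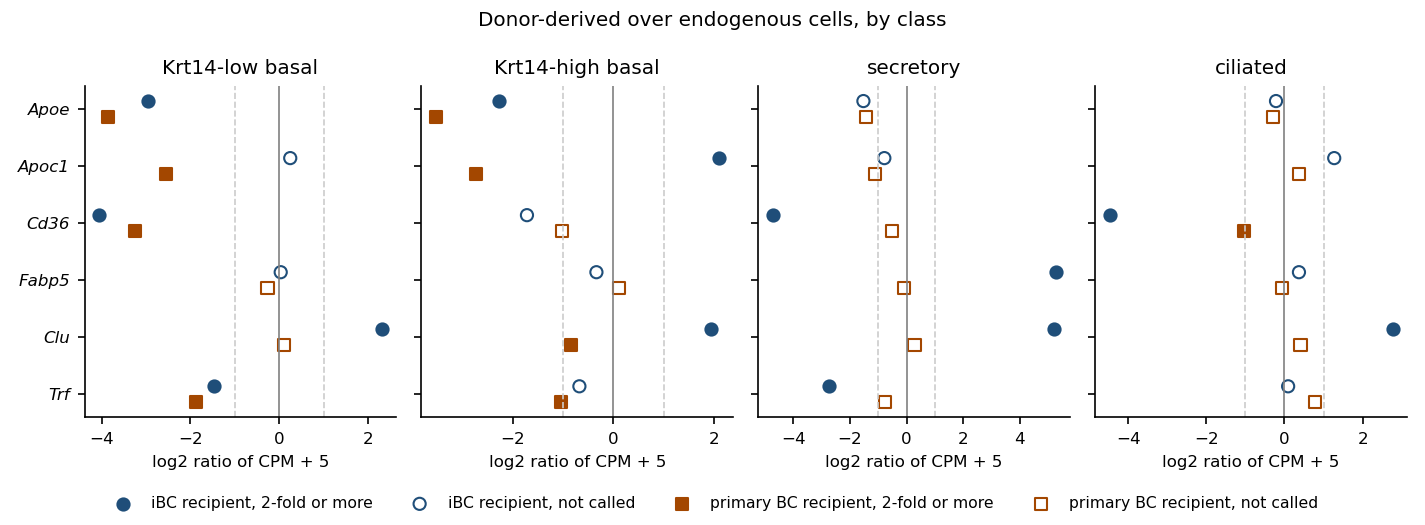
Log2 ratio of graft over host levels (CPM plus 5) for the 6 genes, by class, with circles for the iBC and squares for the primary BC mouse; dashed lines mark 2-fold, filled points were called and open points beyond the lines were under 20 CPM or had a fold under 2 or an interval reaching 1. In the Krt14-high panel Apoc1 stands at 2.10 in the iBC and -2.74 in the primary BC mouse.

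The graft libraries were also set against each other, and so were the host ones; these comparisons use the same 4 libraries as those above and differ in strain, days and animal. Between the graft libraries 12 of 24 pairs were called, 9 higher and 3 lower in the iBC descendants, with 15 pairs reaching 20 CPM. Over all features 12.9% of 26157 feature-by-class pairs were called (6.4% higher and 6.53% lower). Apoe was 5.98-fold (5.46 to 6.56) and 4.55-fold (4.21 to 4.92) higher in Krt14-low and Krt14-high basal-gated iBC descendants. Cd36 was 32.7-fold lower (21.9 to 50.9) in secretory- and 73.2-fold lower (33.3 to 201) in ciliated-gated iBC descendants, and Trf 10.1-fold lower (9.08 to 11.2) in secretory-gated ones. Clu was higher in all 4 classes, by 9.85-, 6.20-, 41.8- and 3.28-fold in the order Krt14-low, Krt14-high, secretory and ciliated; the last call was lost under a stricter gate, at a log2 ratio of 0.74.

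Between the host libraries 3 of 24 pairs were called, 1 higher and 2 lower in the iBC mouse, with 13 pairs reaching 20 CPM. Over all features 5.85% of 24495 pairs were called (2.49% higher and 3.36% lower). Apoe was 3.08-fold higher (3.01 to 3.15) in Krt14-low cells of the iBC mouse, Trf 2.37-fold lower (2.27 to 2.47) in secretory-gated and Apoc1 2.20-fold lower (1.77 to 2.74) in Krt14-high cells. With cells of clusters led by another class left out, a choice made after seeing the data, the Apoe call was lost (log2 ratio of 0.55) and the calls were 0 higher and 5 lower. Cd36 in Krt14-low cells then went from 0.25 to -1.56, and Trf was called lower in both basal classes, at -1.78 and -1.36. Apoe and Apoc1 were themselves among the top genes of cluster 3, which was left out. It held 67.3% of the host Krt14-low cells of the iBC mouse, so the lower Apoe level there follows from the choice. The Apoc1 call was lost with a Krt14 limit of 1.5 per 10000 (log2 ratio of -0.79) and with classes from clusters (-0.29).

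Within each library the Krt14-high and Krt14-low basal-gated cells were set side by side. In the host cells of the iBC mouse Apoc1 was 3.12-fold (2.64 to 3.71), Cd36 7.05-fold (4.29 to 12.4) and Trf 2.27-fold (1.88 to 2.78) lower in Krt14-high cells, where 2.56% of all features were called. In host cells of the primary BC mouse, where 2.65% were called, Cd36 was 9.69-fold (4.42 to 26.5) and Trf 2.74-fold (2.27 to 3.34) lower, and Clu was 4.65-fold higher (2.70 to 7.78). The 64 Krt14-high cells of that library held 6 Cd36 UMIs in 4 cells and 23 Clu UMIs in 6 cells. None of the 6 genes was called between the states of either graft library, where 1.07% and 1.12% of features were called.

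Apoe varied little with Krt14 in the host cells of the iBC mouse, standing at 4190, 3675, 3662 and 3653 CPM in cells with 0, up to 3, 3 to 12 and 12 or more Krt14 UMIs per 10000. In host cells of the primary BC mouse it went up along the same bins, from 1308 through 1492 and 1815 to 2205 CPM. In graft cells of that mouse it went from 75.1 through 134 and 142 to 194 CPM. Apoe of the iBC graft cells stood at 488, 643, 458 and 882 CPM, with no steady direction. Apoc1 went from 376 through 204 and 121 to 101 CPM in the host cells of the iBC mouse, while in its graft cells it stood at 368, 557, 519 and 493 CPM. The 2 neighbouring apolipoprotein genes thus ran apart along Krt14 in the first of these libraries.

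**Figure D4:**
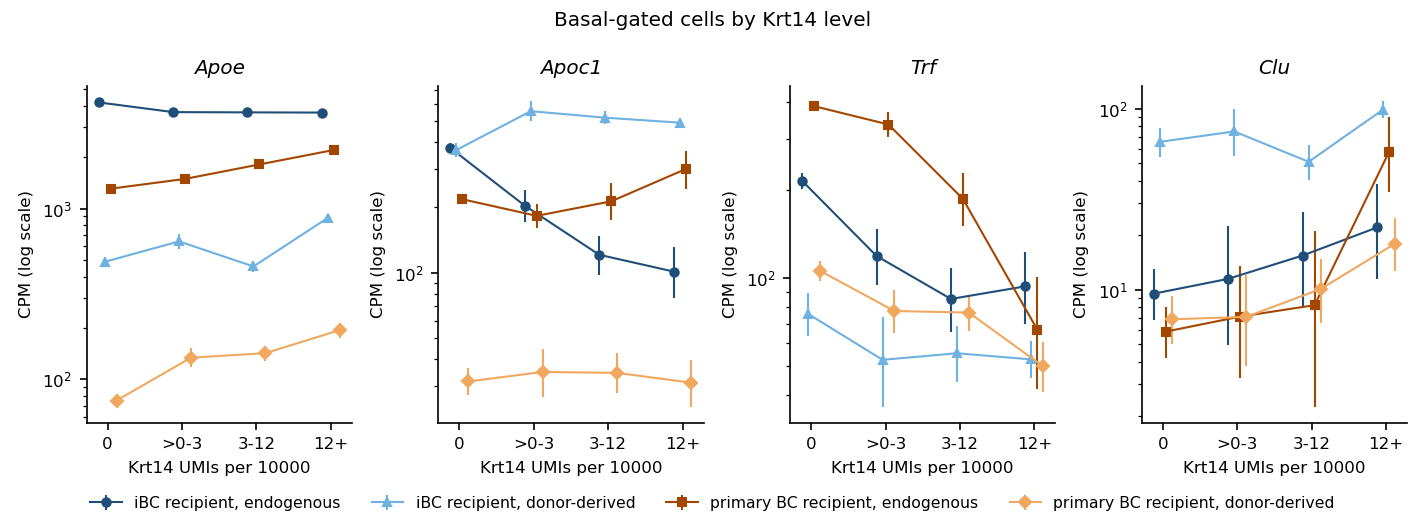
Levels of Apoe, Apoc1, Trf and Clu (CPM, log scale with a range of its own per panel) in basal-gated cells binned by Krt14 UMIs per 10000, with exact 95% Poisson bars and 1 line per library. Apoc1 of the host library of the iBC mouse goes from 376 to 101 CPM across the bins, and Apoe of the same library from 4190 to 3653 CPM.

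Clustering of all cells gave 21 clusters, from genes that the 6 members were not kept out of. In the iBC mouse the libraries occupied different clusters: Krt14-low cells lay in clusters 3 (67.3%) and 9 (29.0%) in host cells and in cluster 1 (83.8%) in graft cells, secretory-gated cells in cluster 5 (92.8%) and cluster 6 (97.3%), and ciliated-gated cells in clusters 8 (99.7%) and 11 (98.8%). Apoe stood at 5069 CPM in cluster 3, 2325 in cluster 9 and 521 in cluster 1, and Apoc1 at 449, 126 and 487 CPM. In the smaller iBC-derived clusters 14 and 15, Apoe stood at 172 and 1199 CPM and Apoc1 at 117 and 568 CPM. Within the iBC graft library Apoe thus ranged from 172 to 1199 CPM among these clusters.

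The top genes of 6 clusters held more markers of another class than of their own, among them cluster 3 (Ccl20) and cluster 15 (Ccl20, Ccl9 and Spib). With the cells of those clusters left out, a choice made after seeing the data, the log2 ratio of Apoe in Krt14-low cells of the iBC mouse was -2.43 and that of Apoc1 1.39, which then passed the limit as higher. Cluster 3 also had Apoe and Apoc1 among its top genes and held 67.3% of the host Krt14-low cells of the iBC mouse. Leaving it out thus lowers the host levels of both genes by construction. The uncalled ratio of Trf in Krt14-high cells of that mouse turned from -0.68 to 0.27. The ratios of Apoe in basal-gated cells of the primary BC mouse were both -3.53.

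In the primary BC mouse both libraries shared their clusters, so the members were also compared cluster by cluster. Most cells of clusters 0, 2, 4 and 12 were basal-gated, but hillock markers stood among the top genes of cluster 4 (Krt4) and cluster 12 (Krt13, Krt6a, Upk3bl and Krt4) and none of the basal list did, and 77 of the 214 cells of cluster 12 were hillock-gated. Apoe was 10.6-, 13.9-, 9.71- and 10.0-fold lower in graft cells of clusters 0, 2, 4 and 12, where 0.565%, 0.94%, 0.555% and 1.97% of features were called. Apoc1 was 5.14-, 6.20-, 6.21- and 9.83-fold and Cd36 21.6-, 17.3-, 4.78- and 5.94-fold lower in the same clusters. Trf was 3.09-, 3.12-, 2.11- and 8.26-fold lower in them, and 1.62-fold lower and not called in the secretory-gated cluster 7 (1.08% called). In cluster 10, mostly ciliated-gated, Trf was 12.7-fold higher (27.5 against 2.17 CPM, with 0.731% called), on 76 graft UMIs. Cluster 10 also held 2 between-gate cells. The ciliated-gated graft cells of that mouse held 20 Trf UMIs in all (7.30 against 2.16 CPM, not called), so the 12.7-fold is not a value for ciliated-gated cells. Each of Apoe, Apoc1, Cd36 and Trf was therefore lower in graft cells of clusters 0 and 2, whose top genes held basal markers, and of clusters 4 and 12. Fabp5 was 2.55-fold higher (1.52 to 4.44) in graft cells of cluster 12, at 34.7 against 13.6 CPM.

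**Figure D5:**
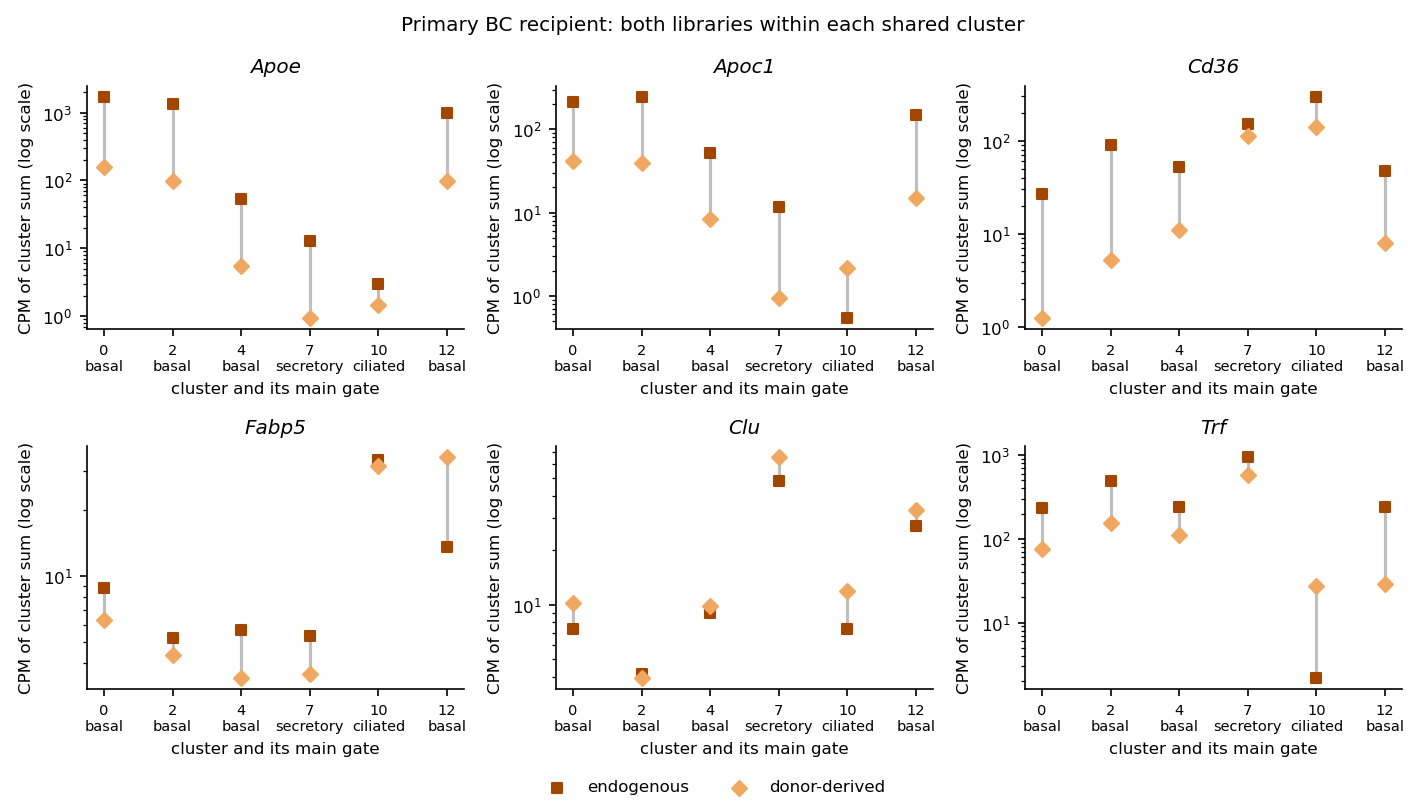
Levels of the 6 genes (CPM of the cluster sum, log scale with a range of its own per panel) in host (squares) and graft (diamonds) cells of the primary BC mouse within each cluster that held at least 50 cells of both; grey lines join the libraries and no error is drawn. Apoe is 9.71- to 13.9-fold lower in graft cells of clusters 0, 2, 4 and 12, of which 4 and 12 have hillock and no basal markers among their top genes.

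Related genes were counted from 8 lists of 149 genes: other apolipoproteins, lipoprotein receptors, fatty acid uptake and binding, lipoprotein remodelling and cholesterol efflux, lipid droplets and oxidation, regulators, iron handling and other extracellular chaperones. In the iBC mouse 6 of 56 measured list genes were called higher and 5 lower in Krt14-low graft cells, 4 and 2 of 57 in Krt14-high, 11 and 5 of 55 in secretory- and 6 and 5 of 59 in ciliated-gated cells. The median log2 ratio of the measured list genes was 0.21, 0.13, 0.39 and 0.05, beside 0.10, 0.10, 0.36 and 0.11 for all features. Over all features 4.06%, 5.03%, 9.05% and 4.26% were called higher and 3.75%, 3.49%, 3.54% and 4.9% lower in the same 4 classes. With TMM scaling the secretory count turned to 3 higher and 7 lower, and the Krt14-low count to 3 higher and 5 lower. In the primary BC mouse 1 of 58 list genes was higher and 3 lower in Krt14-low cells, 3 and 2 of 56 in Krt14-high cells, and 0 of 57 and 0 of 63 in secretory- and ciliated-gated cells in either direction. Over all features of that mouse 0.195%, 0.69%, 0.522% and 0.423% were called higher and 0.568%, 0.751%, 0.481% and 0.16% lower, and the medians of the list genes were 0.01, 0.09, 0.05 and 0.00 beside 0.01, 0.04, 0.06 and -0.02.

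In the fatty acid uptake and binding list, Cav1, a coat protein of caveolae, was higher in iBC descendants, by 3.84-fold in Krt14-low, 27.4-fold in secretory- and 3.65-fold in ciliated-gated cells. In the Krt14-high class of the iBC mouse no gene of that list was called higher. In the remodelling list the lysosomal cholesterol carrier Npc2 was 2.12-, 2.90- and 2.61-fold higher in Krt14-low, Krt14-high and secretory-gated iBC descendants, the first under 2-fold with TMM scaling. The cholesterol exporter Abcg1 was 3.30-fold lower in Krt14-low and 5.92-fold lower in ciliated-gated ones.

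Of the lipoprotein receptor list, 1 of 8 measured genes was called in Krt14-low and 1 of 9 in Krt14-high iBC descendants, the latter Sort1, a sorting receptor, at 27.4 against 5.30 CPM. In the iron list the lactoferrin gene Ltf was 9.60-fold lower in ciliated-gated and 5.95-fold lower in Krt14-high iBC descendants, and 2.11- and 4.91-fold higher in Krt14-low and Krt14-high primary BC descendants. Lcn2, a carrier of bacterial iron chelators, was 2.90-fold lower in secretory- and 4.49-fold higher in ciliated-gated iBC descendants. The metalloreductase Steap2 was 2.76-fold lower in Krt14-low and 5.72-fold lower in secretory-gated iBC descendants. The plasma copper protein Cp was 2.34- and 2.04-fold lower in Krt14-low and Krt14-high primary BC descendants. The haemoglobin-binding protein Hp was 8.79-fold higher in ciliated-gated iBC descendants and 2.20-fold lower in Krt14-low primary BC descendants.

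The genes whose levels ran most like each member were ranked by Pearson's r of log2(CPM + 5) over the 16 library-by-class sums, among 5229 features with at least 50 CPM in one sum. These sums share animals, libraries and gates, so r is a description. Apoe ran with Nop53, Nsa2 and Dlk2 (r of 0.94 each) and at 0.93 with Apoc1, which itself ran with Tinagl1 (0.94) and Bmp3 (0.93). Cd36 ran with Cyba (0.90), Rbbp7 and Slc5a8 (0.89 each), and Trf with Acsm1 (0.94), Sytl2 and Msln (0.93 each). Clu ran with Scgb1c1 (0.89), Slco1a5 (0.88) and Upk3a (0.84), and Fabp5 with Cradd (0.82), Upk3a and Rhou (0.80 each). Among the members themselves no positive r other than that of Apoe with Apoc1 exceeded 0.53, the value for Fabp5 and Clu.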

How the data were processed

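Live cells of 2 recipient tracheas were sorted by GFP and profiled on the 10x Chromium system, 1 library per group. The authors deposited 1 matrix of raw UMI counts (whole numbers, gene by barcode) for each library, per the file headers. Cell Ranger, STARsolo, Seurat and the build GRCm38 are named in the submitters' processing notes; versions and which tool made the counts are not given in the sources used here.

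Barcodes with fewer than 500 genes or over 20% mitochondrial UMIs were removed, and doublets were called per library with Scrublet in scanpy 1.11.5 (0.568% to 2.38%) and removed. Per cell, mean log2 marker levels were scaled per library between the 5th and 95th percentiles; the highest scaled score of at least 0.4, leading by 0.2, set the gate, and rarer classes needed a score of 1. Leiden clustering (leidenalg 0.10.2, resolution 1.0) used 2000 variable genes, 30 components and 15 neighbours. Each class was summed within its library and expressed as CPM; a comparison needed 50 cells of the class on either side, log2 ratios used CPM + 5, and folds used no pseudocount. With 1 library per group no test was made. Intervals (95%) came from scipy 1.17.1 and a count of 0 was read as at most 3. The calculation was tested on simulated data. TMM scaling came from edgeR 4.0.16 in R 4.3.3 as an alternative.

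All 6 members are reported in every class. Other genes were named from 8 lists where called, at most the 3 highest and 3 lowest per comparison and class, and the 3 most similar genes per member by r; some genes this rule names are not reported here. The members and lists were chosen with earlier results of these data known. Fabp5 and Trf may share reads with a gene copy and an overlapping gene. Sequences were matched by symbol to RefSeq windows for 2 of the 6 genes. Alternatives to scaling, pseudocount, filter, doublets, gates and the Krt14 limit are given at the end.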

Additional observations from a re-analysis of the deposited data

Results flagged for a closer look

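Apoc1 in Krt14-high basal-gated cells had a log2 ratio of graft over host levels of 2.10 in the iBC mouse and -2.74 in the primary BC mouse, so the grafts lay on opposite sides of their hosts' own cells. Clu in the same class had ratios of 1.94 and -0.84, also of opposite sign. Both stand out because the same contrast ran in opposite directions in the 2 mice; with 1 library per group the difference between the recipients was not tested. The iBC descendants in this class numbered 425 and held 2523 UMIs of Apoc1, against 149 UMIs in 162 host cells. The primary BC mouse held 153 UMIs in 415 graft and 203 UMIs in 64 host cells. Clu rested on fewer counts in the primary BC mouse, with 63 graft UMIs and 23 host UMIs, the latter in 6 of the 64 cells. That Clu call was lost with classes taken from clusters, at a log2 ratio of -0.43.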

How the results depend on the processing

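No ratio called in the main run changed sign under any alternative run. Some uncalled ratios did change sign and became calls. Fabp5 of graft against host Krt14-high cells of the iBC mouse went from -0.34 to 0.98 with classes from clusters. Cd36 between the host libraries in Krt14-low cells went from 0.25 to -1.56 without clusters led by another class. TMM scaling, doublets kept and a mean over cells each kept 37 of 37 calls over the 4 comparisons. Gate scores scaled over all libraries, a choice made after seeing the data, did so too. Pseudocounts of 1 and 20 CPM and no minimum level also kept all 37 but could lose none. A call uses no pseudocount, and dropping the minimum can only add calls. Calls were also added: 13 without the minimum, 12 with classes from clusters (8 of them Fabp5 in basal classes), 4 with doublets kept, 4 without clusters led by another class, 2 without cells of high secretory score, and 1 each with a Krt14 limit of 1.5 and with gate scores scaled over all libraries. A stricter gate and a Krt14 limit of 1.5 kept 36, classes from clusters 34, a Krt14 limit of 6 kept 32 of 32, and leaving out cells with a high secretory score 31 of 32. Leaving out clusters led by another class, of which cluster 3 had Apoe and Apoc1 among its top genes, kept 34. The calls between the host libraries, 3 in all (1 higher, 2 lower in the iBC mouse), became 5 with doublets kept (3 higher, 2 lower), 6 with classes from clusters (5 higher, 1 lower) and 5 without clusters led by another class (0 higher, 5 lower). The 9 calls in the primary BC mouse became 5 of 18 pairs with a Krt14 limit of 6 per 10000 and 4 of 18 without cells of high secretory score, since under 50 Krt14-high cells were left and that class dropped out in both; the latter also lost the ciliated Cd36 call, at -0.92. A UMI was found in at least 50% of cells in 19 of 96 gene, library and class combinations, and in 12 after thinning to 5000 UMIs. No paired analysis was possible because each group held 1 library. Depth limits Cd36 in the iBC descendants, where basal-gated ratios rest on 1 UMI. No replicate could be left out.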

Other observations

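Cells outside the 4 compared classes also held the members. Hillock-gated cells held 245 CPM of Apoe (213 to 280) in the primary host, 53.7 CPM (42.0 to 67.6) in the primary graft and 2.18 CPM (0.0551 to 12.1) in the iBC graft library, from 37, 90 and 27 cells. Clu stood at 272 CPM in the hillock-gated iBC descendants, against 34.8 and 38.8 CPM in the primary host and graft ones. Trf stood at 63.9 CPM in primary host and 2.98 CPM in primary graft hillock-gated cells.

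Immune-gated cells of the primary BC mouse's host library held 5609 CPM of Apoe and 1.35 CPM of its neighbour Apoc1, which had 1 UMI in 61 cells, while host Krt14-low cells of the same library held 1337 and 213 CPM. The same immune-gated cells held 212 CPM of Cd36, 285 CPM of Trf and no UMI of Clu, which at this depth allows a UMI of it in up to 4.92% of such cells. The microfold-gated iBC descendants held 412 CPM of Apoe and 233 CPM of Apoc1 in 24 cells.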
